A study of Homo sapiens with 6 samples.

Results

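The 8 genes TCP1, CCT2, CCT3, CCT4, CCT5, CCT6A, CCT7 and CCT8 encode the subunits of CCT, the chaperonin of the cytosol, also called TRiC. They were chosen by symbol, and 25 human probe sets mapped to one of them alone, of 49293 human probe sets and 18244 named genes on the array. Each subunit was read from its probe set with the highest mean log2 value over the 6 arrays, and the other probe sets served as a check. All 8 subunits passed the filter on low values, as did 12198 genes in all.

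P493-6, an immortalised human B-cell line that the labels list as B-cell lymphoma, carries a c-Myc transgene held off by tetracycline. Every sample was the same line with the same transgene, so the groups differed in the time since c-Myc was released, and low-Myc cells carried the transgene too. Total RNA was read on 1-colour Affymetrix arrays, 2 for each of the 3 groups: low-Myc cells at 0 hours, mid-Myc cells at 1 hour and high-Myc cells at 24 hours after release. Synthetic ERCC RNAs were added by cell number. The labels disagree for mid-Myc cells, with 0 hours in 1 protocol field and 1 hour, the time used here, in another. Mid-Myc sample numbers do not follow on from the others, so a separate batch and a change at 1 hour cannot be told apart. The 2 arrays of a group are biological duplicates per the design text, and the sources used here do not say how the cultures were kept apart.

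CCT is a ring-shaped, ATP-driven folding machine. Its rings stack back to back, and each ring holds one copy of each of the different but related subunits in a fixed order. Actin and tubulin depend on it to fold, as do many proteins with WD40 repeats, and prefoldin hands it unfolded actin and tubulin. Since each ring takes one copy of each subunit, how alike the subunit messages move is a question in its own right.

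The sequence just before start sites is shown because all 8 genes were higher at 24 hours, though by different amounts. It lets their starts be set side by side, and its part in any difference was not tested. The genes lie on 7 chromosomes in GRCh38.p14. TCP1 is at chr6:159778498-159789602, CCT2 at chr12:69585459-69601570, CCT3 at chr1:156308968-156338292 and CCT4 at chr2:61868085-61888671. CCT5 is at chr5:10249921-10266412, CCT6A at chr7:56051765-56063989, CCT7 at chr2:73234308-73253005 and CCT8 at chr21:29056326-29073648. RefSeq's table of promoters held 7 of the 8 genes, all but CCT6A. Printed whole are CCT2, CCT7 and CCT8, those whose window ends at the gene's own start and overlaps no other RefSeq gene. They cover the 250 bases before the start, on the gene's strand, with capitals for matches to 4 motifs. A motif that lies on the other strand appears as its reverse complement. CCT2 is chr12:69585209-69585458 (plus strand), CCT7 is chr2:73234058-73234307 (plus strand) and CCT8 is chr21:29073649-29073898 (minus strand).
CCT7: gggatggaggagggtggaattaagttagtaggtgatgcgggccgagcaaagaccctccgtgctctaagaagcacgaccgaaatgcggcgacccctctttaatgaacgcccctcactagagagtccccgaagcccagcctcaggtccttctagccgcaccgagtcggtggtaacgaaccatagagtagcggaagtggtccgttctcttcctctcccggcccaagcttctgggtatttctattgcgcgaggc
CCT2: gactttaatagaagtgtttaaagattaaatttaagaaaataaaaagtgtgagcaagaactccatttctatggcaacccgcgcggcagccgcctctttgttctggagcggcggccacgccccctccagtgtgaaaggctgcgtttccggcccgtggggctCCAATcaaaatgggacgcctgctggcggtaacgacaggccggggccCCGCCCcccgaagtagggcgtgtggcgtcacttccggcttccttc
CCT8: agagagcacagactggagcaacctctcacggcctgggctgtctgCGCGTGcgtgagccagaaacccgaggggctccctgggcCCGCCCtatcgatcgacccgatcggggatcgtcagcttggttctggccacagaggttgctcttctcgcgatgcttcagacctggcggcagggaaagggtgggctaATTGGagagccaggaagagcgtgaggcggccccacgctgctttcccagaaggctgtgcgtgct

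The motifs searched on both strands were the E-box CACGTG, which MYC with MAX binds, its variant CACGCG, the CCAAT box and the GC box GGGCGG. No 2 of them overlapped in a member's window. CACGTG was in no window of the 7 subunits, and in 6.345% of the 35116 windows of all genes. CACGCG lay before CCT3 and CCT8, in 2 of the 9 windows of the 7 subunits (9.72% of all windows). CCAAT lay before TCP1, CCT2, CCT3 and CCT8, in 4 of 9 windows (32.01% of all windows). The GC box lay before the same 4 genes, in 5 of 9 windows (42.6% of all windows). In CCT2 the CCAAT match began 91 bases before the start and the GC box 45 bases before it. Another CCT2 window, before a start site 430 bases inside the gene, held GC boxes that began 65 and 50 bases before that site. In CCT8 the variant E-box began 206 bases, the GC box 168 bases and the CCAAT match 63 bases before the start. CCT7 held no match in its window, and neither did CCT4. The window of CCT5 in the table lies before a start site 616 bases inside the gene, and it held none either. The bases before CCT5's first start were not searched. A match is a description of letters and a missing match covers this window alone.

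The line's identity and the 6 arrays were looked at first. The B-cell markers MS4A1, CD79B, PAX5 and CD79A had mean intensities of 11519, 2428, 848 and 503. CD79A and CD79B averaged 259 and 1100.4 in high-Myc cells, against 653 and 3420.2 in low-Myc cells. Of the 13 markers of other cell types 12 had mean intensities of 17.3 to 58.6, none at 0. The exception was LYZ, a monocyte marker, with 387 in high-Myc cells and 1199 in low-Myc cells. EPCAM, an epithelial marker, averaged 107 in high-Myc cells and 35.2 in low-Myc cells. The part of these markers in any result was not tested. MYC itself had intensities of 10472 and 10279 in low-Myc, 10031 and 9941 in mid-Myc and 11888 and 11979 in high-Myc cells. Per cell MYC was 0.96 log2 higher in high-Myc cells relative to low-Myc cells (limma adjusted p = 4.08e-10). The median of all tested genes was 0.98 log2 there, so this value does not set MYC apart from them. With the arrays set to equal medians MYC was 0.34 log2 higher (limma adjusted p = 2.68e-07) and the median tested gene 0.05. In mid-Myc against low-Myc cells MYC was 0.13 log2 higher per cell and 0.09 with equal medians. The medians of all tested genes were then 0.30 and 0.09 log2. Signal from the transgene and from the cell's own MYC gene cannot be told apart here.

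The deposited intensities of the subunits come first, in the order low-Myc, mid-Myc, high-Myc. TCP1, the alpha subunit that gave the complex its first name, had 620.4 and 592 in low-Myc, 624 and 587 in mid-Myc and 1832 and 1885 in high-Myc cells. CCT2, the beta subunit, had 1079 and 1064 in low-Myc, 973 and 1014 in mid-Myc and 3317 and 3430 in high-Myc cells. CCT3, the gamma subunit, had 1165 and 1108 in low-Myc, 1130.1 and 1128 in mid-Myc and 2542 and 2586 in high-Myc cells. Both high-Myc arrays stood above all others in these subunits. Low-Myc and mid-Myc arrays overlapped in TCP1 and CCT3, and mid-Myc lay below low-Myc in CCT2.

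CCT4, the delta subunit, had 3884 and 3763 in low-Myc, 3417 and 3403 in mid-Myc and 5686 and 6077 in high-Myc cells. CCT5, the epsilon subunit, had 1594 and 1543 in low-Myc, 1640.1 and 1614 in mid-Myc and 4230.3 and 4111 in high-Myc cells. CCT6A, the zeta subunit of most tissues, had 490.5 and 494 in low-Myc, 412 and 389.9 in mid-Myc and 1272 and 1281 in high-Myc cells. High-Myc arrays were again the highest in each, while mid-Myc arrays lay below low-Myc arrays in CCT4 and CCT6A and above them in CCT5.

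CCT7, the eta subunit, had 1536 and 1498 in low-Myc, 1601 and 1558 in mid-Myc and 3951 and 4064 in high-Myc cells. CCT8, the theta subunit, had 3498 and 3468 in low-Myc, 3322 and 3372 in mid-Myc and 6016 and 5806 in high-Myc cells. Mid-Myc arrays lay above low-Myc arrays in CCT7 and below them in CCT8, and high-Myc arrays above all others in both. Over the 8 subunits the deposited values of mid-Myc and low-Myc arrays did not overlap in 6, as in 64.8% of all tested genes, and those of high-Myc and low-Myc arrays in 8, as in 82.9%. Deposited values carry the authors' array scaling, so differences were computed on the scales described next. The intensity of a probe set also depends on its probes, so it does not order the subunits by amount of message.

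**Figure D1:**
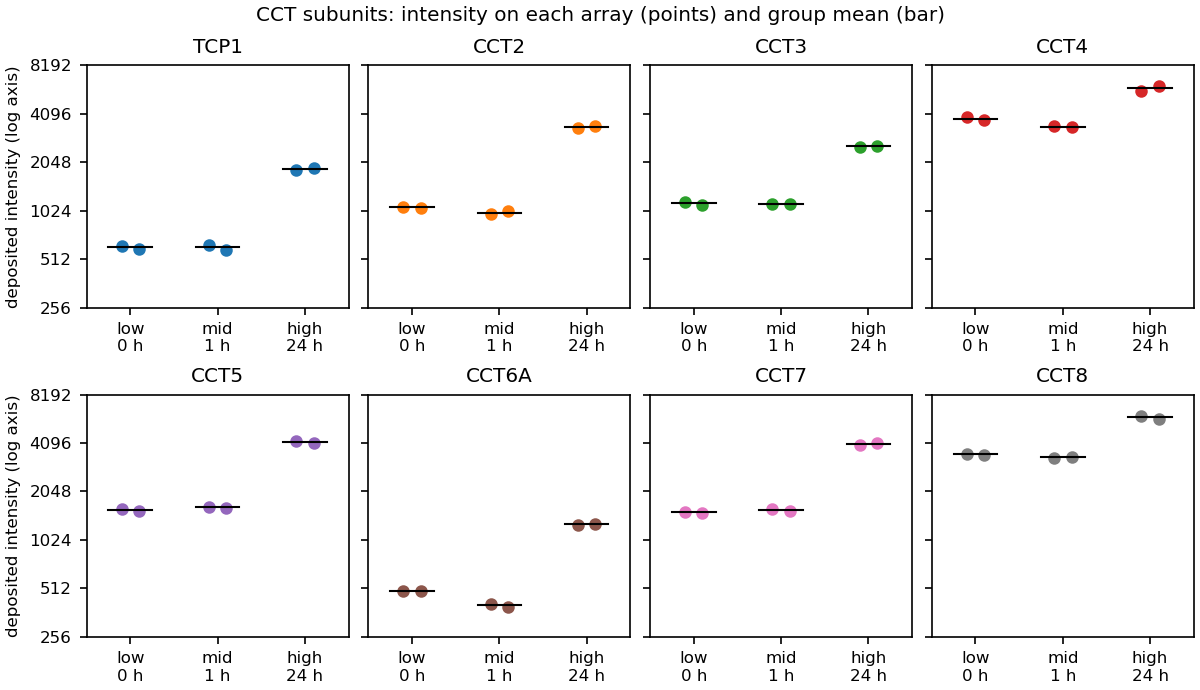
Deposited intensity (log axis) of the 8 CCT subunits on each array, in the groups low-Myc, mid-Myc and high-Myc, with 1 point per array. In every subunit both high-Myc arrays stand above the other 4, as in CCT2, with 3317 and 3430 in high-Myc cells against 1079 and 1064 in low-Myc cells.

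Differences are given as log2 on a per-cell and an equal-median scale. The first subtracts from each array a curve through its ERCC probe sets, so that equal numbers of cells are compared. The second sets the median human probe set of every array to the same value. Below, the bulk of the RNA stands for that median. It lay at 44.5 to 50.2 in the deposited values, not far above the filter at 33.8, so it is a dim reference. The ERCC probe sets show why both are needed. In the subunits' range of intensity, 631 to 4248, 13 ERCC probe sets had a median difference of -1.34 log2 in the deposited values of high-Myc against low-Myc cells, and -0.15 ± 0.06 (SD over probe sets) after the curve. The curve thus did not remove all of the difference in this range.

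After 24 hours all 8 subunits were higher in high-Myc cells relative to low-Myc cells. Per cell the median subunit was 2.49 log2 higher, or 5.61-fold, and 8 of 8 passed the limma test (largest adjusted p = 1.75e-10). Of all tested genes 91% were called higher and 2.47% lower per cell, so the count alone does not set the subunits apart. The size can be read against the median of all tested genes, which was 0.98 log2. With one ERCC factor per array in place of the curve, the median subunit was 2.74 log2 higher. Bulk RNA does not show whether all cells or a part of them carried more of a message, and these cannot be told apart.

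Against the bulk of the RNA the subunits were also higher. On the equal-median scale 8 of 8 were called higher in high-Myc cells relative to low-Myc cells, where 37.7% of all tested genes were called higher and 26% lower. The median subunit was 1.53 log2 higher (2.88-fold) and the median tested gene 0.05 log2 higher. This size depended on the scaling. The median subunit was 1.32 log2 higher with arrays centred on the tested genes and 1.27 with quantile normalization. It was 1.39 log2 higher with cyclic loess and 1.39 in the values as deposited. The arrays of the groups did not overlap in 8 of 8 subunits, as in 79.9% of all tested genes. Among all tested genes, the subunits' differences lay between percentile 83.6 and percentile 97.5.

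The subunits moved in the same direction but not by the same amount. CCT2 was 1.79 ± 0.051 log2 (SE, n = 2 each) higher and TCP1 1.76 ± 0.056 log2 higher on the equal-median scale, with limma adjusted p = 4.48e-12 and 1.01e-11. These are folds of 3.47 and 3.38. CCT5 at 1.55 ± 0.044, CCT7 at 1.54 ± 0.045 and CCT6A at 1.51 ± 0.056 log2 lay close to each other, at 2.93-fold, 2.91-fold and 2.86-fold. CCT3 followed at 1.31 ± 0.050 log2.

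CCT8 and CCT4 had the smallest differences. CCT8 was 0.90 ± 0.039 log2 (1.87-fold) higher in high-Myc cells relative to low-Myc cells, with limma adjusted p = 1.35e-10. CCT4 was 0.76 ± 0.045 log2 (1.69-fold) higher, with limma adjusted p = 3.06e-09. The per-cell scale put the same 2 genes last, with 1.71 log2 (3.28-fold) for CCT8 and 1.56 log2 (2.96-fold) for CCT4, and TCP1 first with 2.87 log2 (7.30-fold). The ERCC curve subtracted on that scale varies with intensity. It differed by -0.94 log2 at CCT4, -0.95 at CCT8 and -1.25 at TCP1, so part of the per-cell gap comes from the curve. The probe sets of CCT4 and CCT8 also had the highest mean intensities of the 8, a point taken up with the other probe sets.

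**Figure D2:**
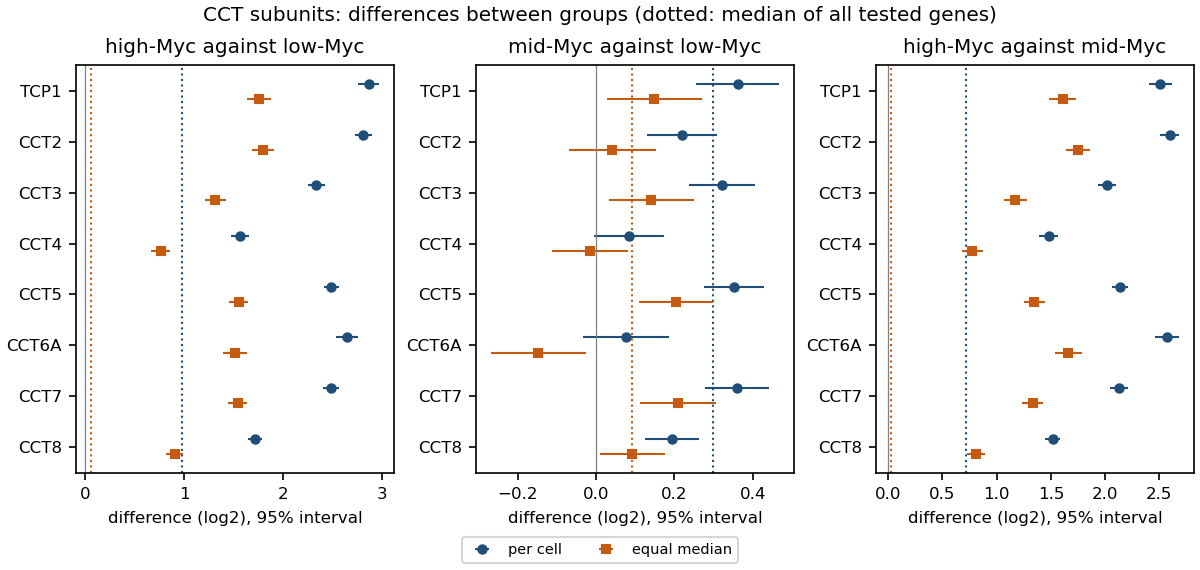
Log2 difference of each subunit in the 3 comparisons, on the per-cell and equal-median scales, with 95% intervals. The dotted lines are the medians of all tested genes. In high-Myc against low-Myc cells every subunit lies right of its dotted line, from 0.76 (CCT4) to 1.79 (CCT2) on the equal-median scale.

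One hour after release the subunits had moved little. Per cell, 6 of 8 were called higher in mid-Myc than in low-Myc cells, where 62.7% of all tested genes were called higher and 0.672% lower. Their median was 0.27 log2, against 0.30 for all tested genes. The ERCC curve subtracted here itself differed by -0.25 (CCT4) to -0.38 log2 (CCT6A) in mid-Myc against low-Myc cells. Before the curve, the ratio of deposited intensities ran from 0.927 (CCT2) to 1.04 (CCT7) among the 6 called. These per-cell calls thus rest on the curve, and the p-values do not include its own error. TCP1 and CCT7 were 0.36 log2 higher each (limma adjusted p = 1.35e-04 and 3.31e-05), CCT5 0.35 (2.66e-05), CCT3 0.32 (7.18e-05), CCT2 0.22 (9.73e-04) and CCT8 0.19 (4.26e-04). CCT4 at 0.085 and CCT6A at 0.08 log2 did not pass the test (adjusted p = 0.0873 and 0.193 by limma). CCT4 was called without high-Myc replicate 1 or 2 (limma adjusted p = 0.0262 and 0.0294), with the 2 groups alone (0.0172), and at 0.22 log2 with one ERCC factor per array (6.69e-04). CCT2 was at 0.09 log2 and lost its call (limma adjusted p = 0.119) with its dimmer probe set, and the count of 6 ran from 5 to 7 over the alternatives.

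On the equal-median scale 3 of 8 subunits were called higher in mid-Myc than in low-Myc cells, where 25.7% of all tested genes were called higher and 3.39% lower. They were CCT7 (0.21 log2, limma adjusted p = 0.00365), CCT5 (0.20 log2, 0.00354) and CCT3 (0.14 log2, 0.0495). TCP1 at 0.15, CCT8 at 0.09, CCT2 at 0.04, CCT4 at -0.02 and CCT6A at -0.15 log2 did not pass. The median subunit was at 0.12 log2, and the median tested gene at 0.09. The arrays of the groups did not overlap in 6 of 8 subunits, as in 64.4% of all tested genes. CCT3 lost its call without low-Myc replicate 2, either mid-Myc array or either high-Myc array (limma adjusted p = 0.0642 to 0.263). Quantile normalization or cyclic loess turned the sign of CCT2, CCT3 and CCT8 and gave 4 subunits called lower and none higher, so no direction at 1 hour is drawn from this scale.

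Most of the 24-hour difference lay between the 1-hour and 24-hour samples. In high-Myc against mid-Myc cells, 8 of 8 subunits were called higher, per cell as well as by the equal-median scale. Of all tested genes 81.8% were called higher and 6.48% lower per cell, and 33.3% higher and 30.9% lower on the equal-median scale. The median subunit was 2.13 log2 higher per cell and 1.34 log2 higher on the equal-median scale, where single subunits ran from 0.77 (CCT4) and 0.81 (CCT8) to 1.66 (CCT6A) and 1.75 (CCT2). The comparisons share the high-Myc or the low-Myc arrays, so they are not independent of one another.

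How alike the subunits moved was tested with each array centred on the mean of the 8, which cancels any single factor per array. The departures sum to 0 over the 8, so a low value of one subunit places the others higher, and the shares over all genes also follow from the centring. In high-Myc against low-Myc cells, 5 subunits were called higher than the mean and 2 lower, where 4% of all tested genes were called higher and 92.6% lower. CCT2 was 0.40 log2 above the mean (limma adjusted p = 3.91e-06), TCP1 0.36 (1.49e-05), CCT5 0.16 (0.00200), CCT7 0.15 (0.00208) and CCT6A 0.12 (0.0285). CCT4 was at -0.63 log2 (3.41e-08) and CCT8 at -0.49 log2 (3.51e-07). CCT3 was at -0.08 log2 and did not pass (0.0715). As most tested genes were called on this scale, the adjustment changed the p-values little. Unadjusted limma p was 0.00186 for CCT5 and 0.0274 for CCT6A. The departures of CCT5, CCT7 and CCT6A are small and cannot be told apart from the counterpart of those of CCT4 and CCT8. That counterpart is also part of the departures of CCT2 and TCP1, and it raises the value of CCT3. On the equal-median scale CCT3, at 1.31 log2, lay below the 1.51 (CCT6A) to 1.79 (CCT2) of the subunits called above the mean. CCT6A's call was lost without low-Myc replicate 1, high-Myc replicate 1 or high-Myc replicate 2, with limma adjusted p = 0.144, 0.0881 and 0.0660. It was also lost with no variance trend (0.0694) and without _x_at and _s_at probe sets (0.102).

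After 1 hour the departures from the mean were smaller. In mid-Myc against low-Myc cells CCT7 and CCT5 were each 0.12 log2 above the mean (limma adjusted p = 0.0328 and 0.0479), and CCT6A was at -0.23 (0.00748). Among all tested genes 15.6% were called higher and 6.42% lower. Without low-Myc replicate 2 or mid-Myc replicate 2 none of the 8 passed, and 1 passed without low-Myc replicate 1 or mid-Myc replicate 1. CCT5's call was also lost with no filter and without _x_at and _s_at probe sets (limma adjusted p = 0.0653 and 0.0895). A pseudocount of 16, no variance trend, a replicate block and per-cell values centred on the subunits lost it too (limma adjusted p = 0.0502, 0.180, 0.0595 and 0.0643). In high-Myc against mid-Myc cells CCT2 was 0.45, CCT6A 0.35 and TCP1 0.30 log2 above the mean. CCT3 was then at -0.13, CCT8 at -0.50 and CCT4 at -0.53 log2, and all 6 passed, where 3.56% of all tested genes were called higher and 92.8% lower. CCT5, at 0.04 log2, did not pass there. It passed at 0.30 log2 without _x_at and _s_at probe sets (limma adjusted p = 2.24e-05). With the dimmest probe set above 300 for each gene it passed at 0.40 log2 (limma adjusted p = 3.33e-05). CCT6A's call at 1 hour was among those lost without low-Myc replicate 2 or mid-Myc replicate 2 (limma adjusted p = 0.0591 and 0.0524).

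**Figure D3:**
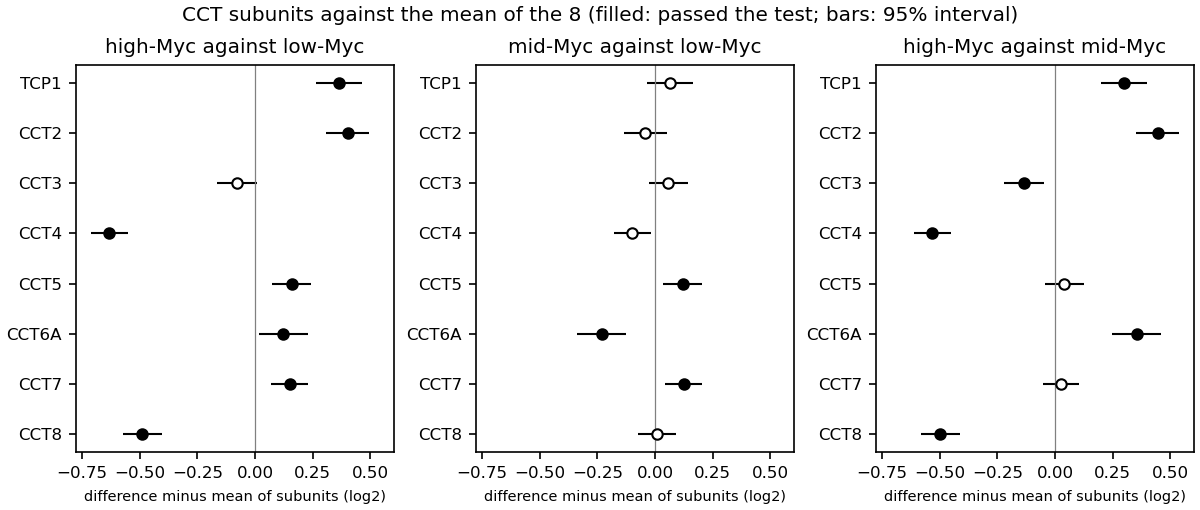
Log2 difference of each subunit after centring every array on the mean of the 8 subunits, with 95% intervals, in the 3 comparisons. Filled points passed the limma test. In high-Myc against low-Myc cells CCT4 (-0.63) and CCT8 (-0.49) lie left of zero, and CCT2 (0.40) and TCP1 (0.36) right of it.

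The spread among the subunits, highest minus lowest on the equal-median scale, was 1.03 log2 in high-Myc against low-Myc cells. It was 0.36 log2 in mid-Myc against low-Myc and 0.98 log2 in high-Myc against mid-Myc cells. Over all pairs of a high-Myc and a low-Myc array, the spread of high-Myc against low-Myc cells had an SD of 0.031 log2. The pairs share arrays, so this SD does not come from independent replicates. The SD across subunits was 0.38 log2 in high-Myc against low-Myc cells, and 0.72 log2 across all tested genes. In the yeast complex CCT2, CCT4 and CCT5 sit on the side of the ring that binds ATP strongly, and CCT3, CCT6 and CCT8 on the side that binds it weakly. Both sides held large and small differences here, with 1.79, 0.76 and 1.55 log2 for CCT2, CCT4 and CCT5, and 1.31, 1.51 and 0.90 log2 for CCT3, CCT6A and CCT8.

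The other probe sets bear on this spread. Of the 25 probe sets 24 lay above the filter, and the 16 that were not used as a subunit's main reading all had its sign in high-Myc against low-Myc cells on both scales. In mid-Myc against low-Myc cells 13 of 16 had it on the equal-median scale and 15 of 16 per cell. In high-Myc against mid-Myc cells 15 of 16 had it on the equal-median scale and 16 of 16 per cell. The exception was a CCT5 probe set at -0.50 log2, with a mean intensity of 48.1. The direction of high-Myc against low-Myc cells therefore did not hang on which probe set above the filter was read. At 1 hour the direction sometimes did. CCT6A and CCT7 have 1 probe set each, so they could not be checked in this way.

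The size did depend on the probe set in some subunits. Among probe sets above 300 in mean intensity, the 4 of CCT4 ran from 0.76 to 1.37 log2 in high-Myc against low-Myc cells on the equal-median scale. The 4 of CCT5 ran from 1.55 to 2.06 log2. The 3 of CCT8 stayed between 0.85 and 0.90 log2, the 5 of CCT3 between 1.31 and 1.42, and the 2 of CCT2 between 1.79 and 1.95. The brightest probe set had the smallest difference in CCT2, CCT3, CCT4 and CCT5, but not in CCT8.

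The relation of brightness to difference depended on which probe sets were counted. Across the 21 probe sets above 300, Spearman's rho between mean intensity and the equal-median difference was -0.81 in high-Myc against low-Myc cells, and -0.53 across all 24 above the filter, where Pearson's r with log2 intensity was -0.03. The limit of 300 was set after seeing the data. These are descriptions: the probe sets share genes and all share the same 6 arrays. The part of brightness in the order of the subunits was not tested. With the dimmest probe set above 300 for each gene, chosen after seeing the data, CCT4 was at 1.22 and CCT8 at 0.85 log2, so CCT8 came last in place of CCT4. The spread among subunits was then 1.21 log2. Against the mean of the 8, CCT4 was then at -0.32, CCT8 at -0.69, CCT3 at -0.12, CCT5 at 0.53, CCT2 at 0.41 and TCP1 at 0.22 log2, and these 6 passed the limma test. CCT6A at -0.025 and CCT7 at 0.002 log2 no longer passed. CCT2 above the mean and CCT4 and CCT8 below it were thus called with another probe set of each. TCP1 has a single probe set above 300, so its own reading was the same in both.

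Dim probe sets carried less of the difference. TCP1's second probe set, at 120 in mean intensity, was at 1.55 log2 in high-Myc against low-Myc cells. The dim ones of CCT5, at 55.4 and 48.1 in mean intensity, gave 1.45 and 0.06 log2. A CCT8 probe set at 29.0, below the filter, was at -0.06 log2. Values this low include background signal.

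**Figure D4:**
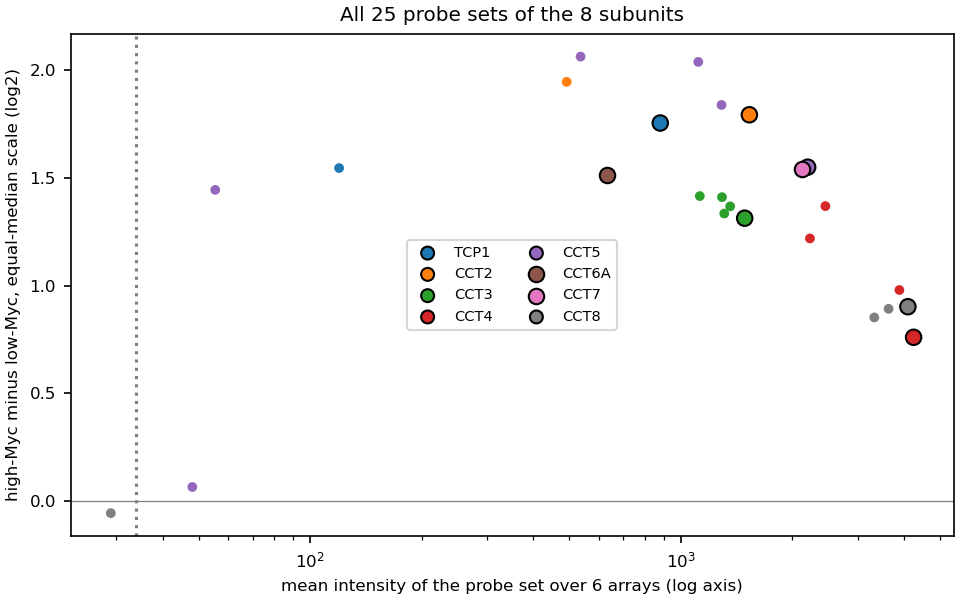
Equal-median log2 difference of high-Myc against low-Myc cells for each of the 25 probe sets against its mean intensity (log axis). Large outlined points are the probe sets used, and the dotted line is the filter at 33.8. CCT4's probe sets run from 0.76 to 1.37 log2 and those of CCT8 above 300 from 0.85 to 0.90.

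Genes with a pattern like that of the subunits were found by the root mean square difference between a gene's centred profile over the 6 arrays and the mean profile of the 8. The 10 nearest were NDUFA8, ME2, PUS1, CACYBP, RSL1D1, MTIF2, TIMM8B, MTCH2, NAE1 and PSMB5, at distances of 0.030 to 0.037 log2. Their differences in high-Myc against low-Myc cells were 1.33 to 1.45 log2 on the equal-median scale. These 10 were selected by this distance from all tested genes and the subunits were not, so their distances are no like comparison. The subunits lay at these distances from their own mean: CCT3 at 0.056, CCT7 at 0.066, CCT5 at 0.070, CCT6A at 0.15, TCP1 at 0.16, CCT2 at 0.20, CCT8 at 0.23 and CCT4 at 0.28 log2. In the order of nearness CCT3 came 46th and CCT4 1474th, so 12.1% of the tested genes lay as near to the mean profile as CCT4 or nearer. The median tested gene was at 0.634 log2.

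Prefoldin is the complex that delivers unfolded actin and tubulin to CCT. Its 6 subunits were all called higher per cell in high-Myc cells relative to low-Myc cells, as were 91% of all tested genes, and the same share holds beside the per-cell counts of the lists that follow. On the equal-median scale 5 of 6 were higher and 1 lower, with a median of 1.12 log2, where 37.7% of all tested genes were called higher and 26% lower. PFDN6 was 1.83 log2 higher (limma adjusted p = 1.57e-10), PFDN2 1.55, PFDN4 1.17, VBP1 1.07 and PFDN1 0.27. PFDN5 was at -0.19 log2 (limma adjusted p = 0.00194) against the bulk of the RNA, and 0.69 log2 higher per cell. The SD across prefoldin subunits was 0.77 log2, and 0.38 log2 across those of CCT. The difference between these spreads was not tested. Other scalings were not run for prefoldin or the lists that follow, so how far their smaller calls depend on scaling was not tested.

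The phosducin-like proteins bind CCT and assist its work on some clients. Of 4 genes 3 were tested and 3 were called higher per cell. On the equal-median scale PDCL3 was 1.26 log2 higher (limma adjusted p = 1.04e-09) and TXNDC9 0.31 (0.0263), and PDCL was at -0.04 (0.655). The tubulin folding cofactors, which take tubulin on after CCT, were called higher per cell in 6 of 6. Against the bulk of the RNA TBCA was 0.60 and TBCE 0.54 log2 higher, and TBCC fell by 0.28 on the log2 scale. TBCB, TBCD and TBCEL were at 0.03, 0.05 and -0.01 log2 and did not pass. The median of these cofactors was 0.04 log2, close to that of all tested genes.

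Among the clients, actins and tubulins were called higher per cell in 14 of 14 tested, close to the 91% of all tested genes. On the equal-median scale 7 were higher, 5 lower and 2 not called, with a median of 0.17 log2, where all tested genes had 37.7% higher and 26% lower. The largest differences were in tubulins: TUBB3 at 1.71, TUBG1 at 1.51, TUBB at 1.22 and TUBA1B at 1.02 log2, all called higher. Tubulins went both ways, since TUBB2B at -0.56, TUBA1A at -0.18 and TUBA4A at -0.16 log2 were called lower. These were also named after their values were seen. The cytoplasmic actins ACTB and ACTG1, singled out after their values were seen, were at -0.31 and -0.17 log2, both called lower against the bulk of the RNA, and 0.50 and 0.46 log2 higher per cell. Of the WD40 and other known clients 15 of 15 tested were called higher per cell, again close to 91%. Of these, 8 were higher, 3 lower and 4 not called on the equal-median scale, beside the same 37.7% and 26%. CCNE1, the cyclin E1 that CCT folds, was 1.32 log2 higher, STRAP 1.00, CDC20, an activator of the anaphase-promoting complex, 0.82, and WRAP53, a telomerase component, 0.77. The median of these clients was 0.39 log2, and that of the CCT subunits 1.53 log2.

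Relatives of the subunits could be read for 3 of 5 genes. MKKS, a chaperonin-like protein tied to Bardet-Biedl syndrome, was 1.34 log2 higher in high-Myc cells relative to low-Myc cells on the equal-median scale. CCT6B, the zeta subunit best known from testis, was 0.35 log2 higher, at a mean intensity of 53.9. BBS10 was at -0.09 log2 and did not pass, and it was called lower in mid-Myc than in low-Myc cells at -0.49 log2. The mitochondrial chaperonin, which folds proteins in another compartment, had the largest differences of these lists, with HSPE1 2.09 and HSPD1 1.95 log2 higher in high-Myc cells relative to low-Myc cells.

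After 1 hour the partners had moved little as well. On the equal-median scale 4 of 6 prefoldin subunits were called higher in mid-Myc than in low-Myc cells, with a median of 0.27 log2, against 3 of 8 CCT subunits with a median of 0.12 log2. Of the actins and tubulins 6 of 14 were called higher and none lower, and of the WD40 and other clients 5 of 15 higher and none lower. Among all tested genes 25.7% were called higher and 3.39% lower, near the share of the WD40 and other clients. STRAP was 0.42 log2 higher, the largest of its list, and HSPE1 and HSPD1 were both called higher, with a median of 0.32 log2. No difference between lists was tested, and the other scalings that turned the subunits at 1 hour were not run for these lists.

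**Figure D5:**
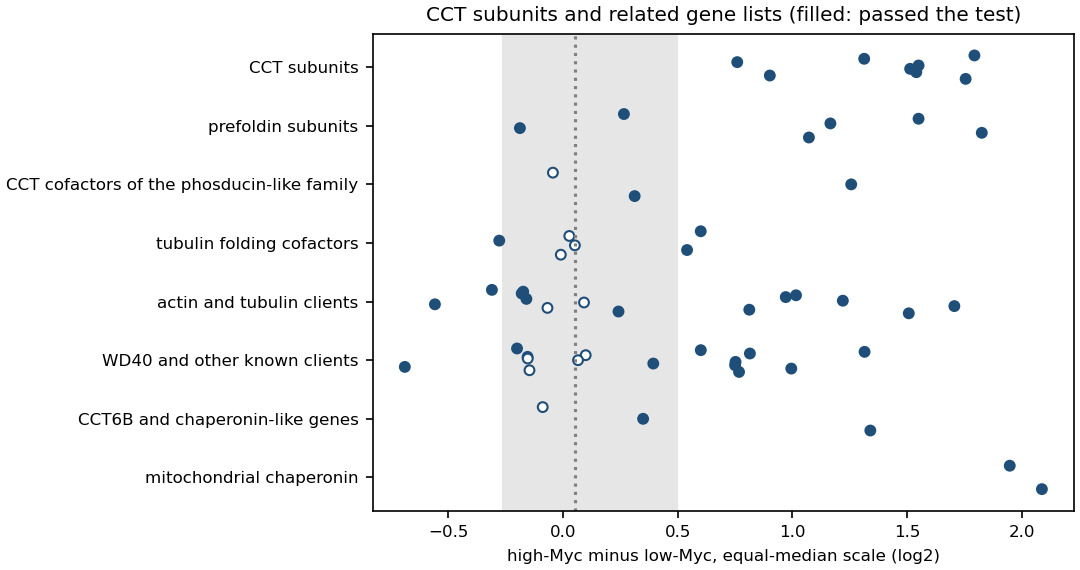
Equal-median log2 difference of high-Myc against low-Myc cells for each tested gene of the CCT subunits and related lists. Filled points passed the limma test, open points did not, and the grey band spans the middle of all tested genes from the 25th to the 75th percentile. The 8 CCT subunits lie between 0.76 and 1.79 log2, and prefoldin subunits between -0.19 and 1.83.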

How the data were processed

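RNA of 6 P493-6 samples was hybridised to 1-colour Affymetrix arrays. The authors deposited linear intensities, 1 per probe set and array, made with MAS5 according to the submitters' processing notes. Its version and scaling target were not given in the sources used here. Of 49293 human probe sets, 45278 had a single gene symbol, 1333 had several and 2682 had none listed. Only those with a single symbol were named, and 45208 were updated through Entrez identifiers. The table holds no detection calls. The number of arrays limits the precision.

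Per-cell values are log2 intensities less a robust loess curve (span 0.7, degree 1) fitted to each array's ERCC probe sets. Equal-median values were centred on the median human probe set, and subunit-mean values on the mean of the 8 subunits. A gene was tested if its brightest probe set averaged above the 40th percentile (33.8 intensity). Differences were tested two-sided with limma 3.58.1 in R 4.3.3, in 1 fit over 6 arrays with a variance trend. Adjustment was Benjamini-Hochberg over 12198 genes, with a threshold of 0.05. SE values are those of the fit, and p-values measure the spread between these samples. The steps were tested on simulated data.

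Named genes were MYC, every subunit, every member of lists with 6 or fewer tested genes and otherwise the 4 largest differences, and the 10 nearest profiles. The members and lists were chosen with earlier results of these data known. Same-numbered arrays did not deviate together. Alternatives changed the filter, the choice of probe set, the pseudocount (16), the trend, the groups fitted, the scaling, or left out 1 array each.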

Additional observations from a re-analysis of the deposited data

How the results depend on the processing

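High-Myc against low-Myc and high-Myc against mid-Myc, 8 of 8 subunits were called higher on both scales under every alternative run. Mid-Myc against low-Myc on the equal-median scale was not firm, with 3 subunits called higher. The calls numbered 5 (4 higher, 1 lower) with an 80th percentile filter, 0 with no variance trend (3 at an unadjusted p under 0.05), and 1 with the dimmest probe set above 300. All calls were lower, against the main direction, with the values as deposited (2, median -0.03), quantile normalization (4, -0.10), centring on tested genes (2, 0.00) and cyclic loess (4, -0.09). Leaving out single arrays gave 2 to 3. The cause was not tested. CCT3 was then at -0.0089 as deposited, -0.061 with quantile and -0.050 with cyclic loess, CCT2 at -0.15 with both and CCT8 at -0.14 and -0.13. Mid-Myc against low-Myc on the subunit-mean scale, the 3 calls became 1 with no variance trend and 0 to 3 without single arrays. The spread among subunits, 1.03 for high-Myc against low-Myc, was 1.30 per cell, 1.22 with the mean of probe sets, 1.08 without _x_at and _s_at probe sets, 1.21 with the dimmest, 1.00 with quantile and 1.01 to 1.06 without single arrays. For mid-Myc against low-Myc (0.36) it was 0.284 per cell, 0.315 with quantile and 0.317 with cyclic loess. For high-Myc against mid-Myc (0.98) it was 1.11, 1.37 with the mean of probe sets, 1.25 with the dimmest, 0.920 with quantile and 0.945 to 1.01 without single arrays. With the dimmest probe sets, CCT6A was at -0.025 (high-Myc against low-Myc) and CCT7 at -0.17 (high-Myc against mid-Myc) on the subunit-mean scale. CCT7 was called lower there (limma adjusted p = 0.00110). With the replicate block, which the numbers do not support as a pairing, 2 subunits were called in mid-Myc against low-Myc on the equal-median scale and 2 on the subunit-mean scale. Without detection calls, signal over background limits what dim probe sets show.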

Other observations

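A probe set shared by CCT8 and CCT8P1, and therefore named for neither, had a mean intensity of 1137. It was 1.17 log2 higher in high-Myc cells relative to low-Myc cells on the equal-median scale and 2.25 log2 higher per cell. CCT8's own probe sets above 300 lay between 0.85 and 0.90 log2 on the equal-median scale.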
